A study of Mus musculus with 36 samples.

Results

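Matricellular proteins are secreted into the extracellular matrix, where they act less as scaffold than as signals: they bind integrins and other receptors, loosen the grip of cells on their surroundings, and hold or release growth factors. In the adult ventricle most are made at low levels, and after an infarct they are known to reappear while inflammatory cells clear dead muscle and fibroblasts lay down a scar. The 9 genes described here are Postn, Tnc, Fn1, Sparc, Thbs1, Thbs2, Ctgf, Cthrc1 and Fbn1, found by symbol among 20720 nuclear genes listed in the count tables. The rule uses symbols and no measured value, but the set was chosen with earlier results of these data known. All 9 were found, and all 9 were counted in the sections on whole plates and on fibroblasts.

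The counts come from SORT-seq, in which single cells are sorted into the wells of plates and each transcript is tagged with a unique molecular identifier (UMI). The mice were C57BL/6 males of 8 weeks, and cells came from the infarcted region of the left ventricle or the matching region of sham hearts. Plates were labelled sham day 1 (4 plates), sham day 14 (8), IR day 1 (9), IR day 3 (7), IR day 14 (3) and MI day 3 (5). IR (ischemia-reperfusion) was a ligation of the left anterior descending coronary artery for 1 hour followed by reflow, MI a ligation that was left in place, and sham the operation without ligation. A sham group of day 3 was not analysed here, so day 3 is set against the shams of days 1 and 14. GEO's labels give MI its own protocol, so a batch of that kind and permanent ligation cannot be told apart. Plates were treated as replicates although the study had fewer mice per condition than most groups have plates, so p-values measure the spread between plates and may be too small.

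Wells with at least 1000 UMIs from nuclear genes were taken as cells, 3146 in all. One sham day 14 plate had been deposited under both replicate 2 and replicate 7 and was counted once, another 20 wells of this depth were copies of wells on other plates and were left out, and 3091 cells remained for pooled values. IR day 3 replicate 2 had 0 such wells. Total UMIs per plate, over all wells and with mitochondrial and spike-in counts, ran from 176614 to 5551870. Nuclear UMIs summed over the cells of a plate ran from 17155 in sham day 14 to 4150040 in MI. Sham day 14 replicates 3, 4 and 6 held only 23, 20 and 10 cells. The median cell held 13120 UMIs in MI day 3 and between 2308 and 3230 in the other 5 groups, while the median mitochondrial share was 10.5% in MI, 33.8% in IR day 1 and 49.3% to 74.0% elsewhere. Levels are therefore given as UMIs of the gene per 1000000 nuclear UMIs (CPM), and shares of cells only after thinning every cell to the same depth. All 3146 cells, duplicates included, were clustered without the 9 genes and named from marker lists. The cluster counts given below for macrophages, endothelial cells and cardiomyocytes also include duplicates. The classes held 334 fibroblast-like, 633 macrophage-like, 413 endothelial-like, 939 cardiomyocyte-like, 157 neutrophil-like and 21 mural-like cells. A further 637 cells stayed unnamed. Among these was a shallow cluster of 197 cells with 5 fibroblast markers but a median of 1490 UMIs, 178 of which came from MI.

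The genes lie apart in the genome (GRCm38.p6): Fn1 on chromosome 1 (71585473 to 71653280, minus strand), Thbs1 and Fbn1 on chromosome 2 (118111876 to 118127133, plus, and 125300594 to 125506485, minus), Postn on chromosome 3 (54359267 to 54391041, plus) and Tnc on chromosome 4 (63959785 to 64047015, minus). Ctgf, now also called Ccn2, lies on chromosome 10 (24595442 to 24598683, plus), Sparc on chromosome 11 (55394159 to 55420080, minus), Cthrc1 on chromosome 15 (39076932 to 39087121, plus) and Thbs2 on chromosome 17 (14665500 to 14694262, minus). RefSeq's promoter table held 5 of the 9. The windows of Tnc, Postn and Thbs2 are given here because these 3 genes followed different courses in fibroblasts. Each is the 100 bases before an annotated start, read 5′ to 3′ on the gene's own strand, at chr4:64047016-64047115 (minus), chr3:54361007-54361106 (plus, the second of 2 starts) and chr17:14694263-14694362 (minus).

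Tnc: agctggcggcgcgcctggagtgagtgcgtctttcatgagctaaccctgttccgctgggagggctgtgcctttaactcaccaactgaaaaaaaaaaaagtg
Postn: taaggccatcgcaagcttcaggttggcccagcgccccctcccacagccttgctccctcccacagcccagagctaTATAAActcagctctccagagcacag
Thbs2: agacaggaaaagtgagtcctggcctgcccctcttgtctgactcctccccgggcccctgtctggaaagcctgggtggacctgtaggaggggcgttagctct

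The windows were searched on both strands for the TATA box core TATAAA, the AP-1 core TGANTCA and the TEAD core GGAATG. The table gave 2 starts each for Postn and Tnc, and the 2 Tnc windows overlapped in part. TATAAA, shown in capitals, was in the printed Postn window, while the window at that gene's other start (chr3:54359167-54359266) held none of the 3 motifs. None was in either Tnc window or in those of Thbs2, Sparc and Fbn1. The Tnc window not printed (chr4:64046937-64047036) held the stretch tatataag, which is close to TATAAA but is not counted by this search. Over 32851 promoter windows of this length the shares with a match were 5.56% for TATAAA, 2.73% for TGANTCA and 4.71% for GGAATG. A match of letters is a description of the window and not a binding site.

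Fibroblasts were the main source of 7 of the 9 genes, whereas macrophages held most of the UMIs of Fn1 and Thbs1. Over all cells, fibroblast-like cells carried 29.1% of all UMIs, but 93.5% of those of Cthrc1, 92.3% of Tnc, 92.2% of Fbn1, 90.7% of Postn, 89.1% of Ctgf and 86.6% of Thbs2. Sparc encodes a collagen-binding protein that endothelium also makes. Its fibroblast-like share was 72.9%, and endothelial-like cells held 15.6%. Fn1 (fibronectin, the cell-adhesive glycoprotein of provisional matrix) had 59.6% of its UMIs in macrophage-like and 33.6% in fibroblast-like cells, and Thbs1 (thrombospondin-1, which binds CD36 and CD47 and activates TGF-beta) had 68.5% and 24.7%. Macrophage-like cells held 37.4% of all UMIs, so both genes were over-represented in them. These shares weight the deep MI cells most, describe clusters and were not tested.

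**Figure D1:**
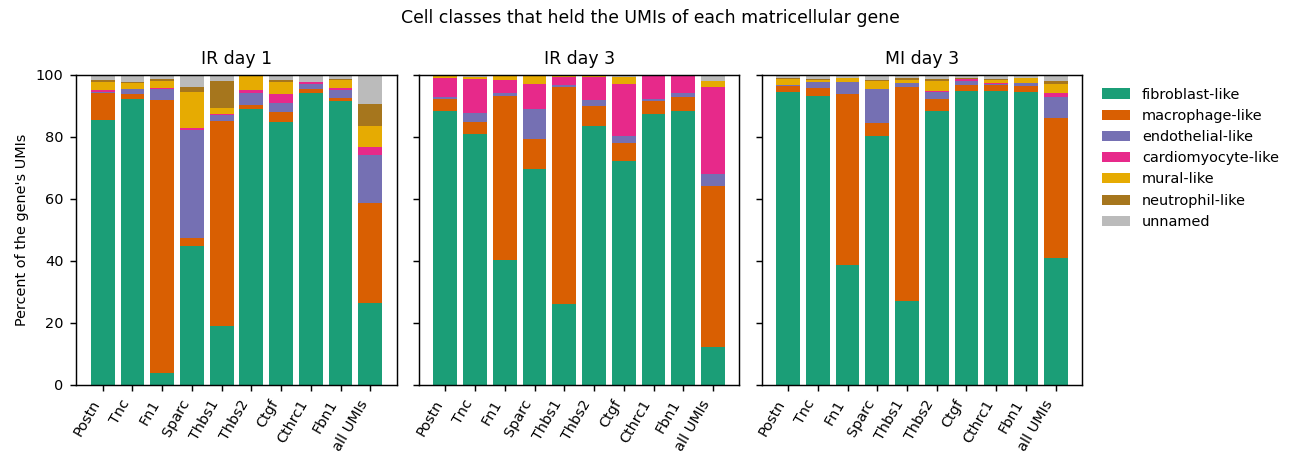
Stacked bars give the percent of each gene's UMIs that lay in each cell class at IR day 1, IR day 3 and MI day 3, with the class shares of all UMIs as the last bar. Fibroblast-like cells held most UMIs of every gene other than Fn1, Thbs1 and, at IR day 1, Sparc, and the Fn1 bar of fibroblast-like cells was 3.58% at IR day 1 against 40.1% at IR day 3.

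The cells that held the UMIs of a gene were not the same in every group. For Sparc, endothelial-like cells held 68.8% of the UMIs in sham day 1 and fibroblast-like cells 21.0%. At IR day 3 and MI day 3 fibroblast-like cells held 69.7% and 80.1%. For Fn1, macrophage-like cells held 81.7% in sham day 1, 88.1% at IR day 1, 52.9% at IR day 3 and 55.4% at MI day 3, while the fibroblast-like share went from 3.58% at IR day 1 to 40.1% at IR day 3 and 66.4% at IR day 14. Thbs1 stayed with macrophage-like cells at IR day 1 (66.3%), IR day 3 (69.9%) and MI day 3 (69.1%), and at IR day 1 neutrophil-like cells held a further 8.44%, at a pooled level of 1796 CPM. In sham day 1 the few UMIs of Ctgf and Postn lay largely outside fibroblasts. Of 87 Ctgf UMIs, cardiomyocyte-like cells held 43 and fibroblast-like cells 13, and of 35 Postn UMIs, endothelial-like cells held 14 and fibroblast-like cells 11. In sham day 14 fibroblast-like cells held 57.6% of Ctgf and 94.8% of Postn, although 104 of their 128 Postn UMIs came from 1 cell.

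Within fibroblasts the 9 genes took different courses after IR. Tnc, Thbs1, Ctgf and Postn were called higher at day 1, and Postn, Cthrc1, Fn1 and Sparc had their highest pooled level at day 3. Thbs2 was lower at day 1 and rose from day 1 to day 3, and Fbn1 passed the test in none of these comparisons. In the pooled cells, Tnc stood at 6.64 CPM in sham day 1, 1379 at IR day 1, 576 at IR day 3 and 65.4 at IR day 14. Postn stood at 73.1, 1227, 5856 and 3083 CPM in the same 4 groups, and Cthrc1 at 19.9, 171, 840 and 120. These pools rest on 30, 50, 73 and 28 fibroblast-like cells, and MI day 3 on 132.

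**Figure D2:**
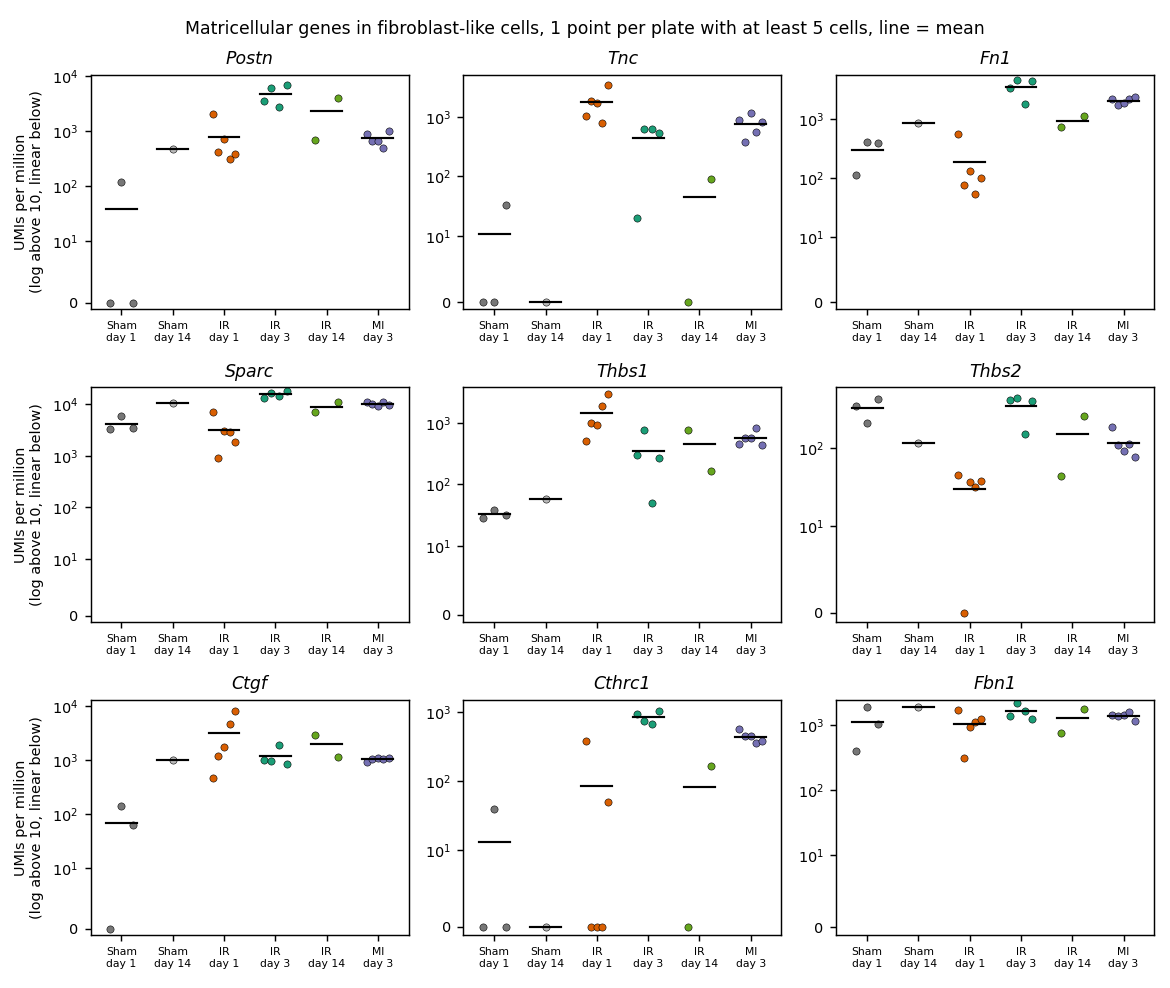
CPM of each gene in the fibroblast-like cells of a plate (log scale above 10 CPM, linear below), 1 point per plate with at least 5 such cells, with the group mean as a line. Tnc, Thbs1 and Ctgf were above every sham day 1 plate already at IR day 1, where Tnc ran from 799 to 3360 CPM, while Fn1 and Sparc were above every sham day 1 plate only at day 3 of IR and MI and, in the few plates of IR or sham shown, at day 14.

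Tests in fibroblasts used the plates with at least 5 fibroblast-like cells. Sham day 1 had 3 such plates, IR day 1 had 5, IR day 3 had 4, IR day 14 had 2 and MI had 5. Sham day 14 had 1 such plate, so both day 3 groups were compared with sham day 1 alone. The class was split between 2 clusters that followed the groups. One, led by Cxcl5, Timp1 and Tnc, held 40 cells from IR day 1, 13 from IR day 3, 131 from MI and none from sham. The other held all sham and IR day 14 cells, with 10 from IR day 1, 60 from IR day 3 and 1 from MI. The summed level of 10 fibroblast markers in these cells also moved with the groups, from 52760 to 63830 CPM over the sham day 1 plates, 6372 to 24290 at IR day 1, 66640 to 78290 at IR day 3 and 30070 to 36870 for MI, and its part in the results below was not tested. Summed macrophage markers stayed at or below 97.6 CPM in sham day 1 and 190 in IR day 1, reached 2697 in 1 IR day 3 plate, and lay between 291 and 351 in MI. The single sham day 14 plate read 3213. Summed cardiomyocyte markers ran from 1119 to 16610 CPM over the sham day 1 and IR day 3 plates and from 22.4 to 397 over those of IR day 1 and MI. Summed mesothelial markers were at most 13.1 CPM in sham day 1 and 23.5 at IR day 1, but ran from 0 to 1445 over the IR day 3 plates (median 3.67) and from 17.0 to 569 in MI. Summed neutrophil markers reached 1190 CPM in 1 IR day 1 plate and at most 256 in sham day 1, IR day 3 and MI. Summed endothelial markers ran from 142 to 845 CPM in sham day 1 and from 0 to 469 at IR day 3, and stayed at or below 138 at IR day 1 and in MI. The part of RNA from these other cells was not tested either.

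At IR day 1, 4 of the 9 genes rose against sham day 1 and 1 fell, where 11.3% of the 6511 genes tested were called higher and 8.37% lower (edgeR, adjusted p under 0.05). The median log2 fold change was 2.31 over the 9 and 0.19 over all genes tested. Tnc encodes tenascin-C, a large hexameric protein that counteracts firm adhesion to fibronectin. Its sham day 1 plates read 0, 0 and 32.5 CPM, a single UMI in all, and the IR day 1 plates 1046, 1813, 1677, 799 and 3360 CPM. The pooled level was 208 times that of sham (95% interval 37.2 to 8206, for counting error only), with an edgeR adjusted p of 5.61e-05. The lowest IR plate lay above the highest sham plate.

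Thbs1 read 28.4, 39.3 and 32.5 CPM in sham day 1 and 515, 979, 922, 1888 and 2961 CPM at IR day 1, a log2 fold change of 5.39 ± 0.86 (SE, adjusted p 0.000131). Ctgf, connective tissue growth factor, is a modular protein that binds growth factors and integrins and is a familiar target of TGF-beta and of YAP. It read 0, 144 and 65.0 CPM in sham day 1 against 475, 1212, 1757, 4756 and 8133 CPM (5.28 ± 0.83, adjusted p 0.000114). In both genes the groups did not overlap, and the IR day 1 plates themselves spread widely. Replicates 7 and 9 were the highest of the 5 for both.

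Postn encodes periostin, which cross-links collagen and marks activated fibroblasts. Sham day 1 plates read 0, 118 and 0 CPM, and the IR day 1 plates 2047, 423, 733, 313 and 387, without overlap (3.80 ± 0.89, adjusted p 0.00379). Of the 11 sham UMIs, 9 came from 1 cell. Thbs2, a thrombospondin that restrains vessel growth and shapes collagen fibrils, moved the other way from Thbs1. It read 341, 209 and 423 CPM in sham day 1 and 44.7, 0, 36.3, 31.3 and 37.5 at IR day 1 (-3.16 ± 0.57, adjusted p 0.00043), again without overlap. All 5 calls held when any 1 plate was left out.

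The remaining 4 genes did not pass the test at IR day 1. Fn1 gave -0.61 (adjusted p 0.511), Sparc -0.36 (0.612) and Fbn1 -0.09 (0.922), and their plates overlapped those of sham. Cthrc1, collagen triple helix repeat containing 1, is a secreted protein of activated fibroblasts that is linked to collagen turnover. It read 380, 0, 0, 0 and 50.0 CPM, so replicate 3 held most of it, and sham read 0, 39.3 and 0 (adjusted p 0.295). Over 10 IR day 1 cells in the cluster shared with sham, Tnc had 0 UMIs and Postn stood at 74.4 CPM, next to 73.1 in sham day 1. Over the 40 cells in the other cluster the values were 1486 and 1316 CPM. In the shared cluster Ctgf stood at 446 CPM against 86.4 in sham, Thbs1 at 74.4 against 33.2, and Thbs2 at 461 against 292, so the lower Thbs2 level was seen in the other cluster, at 48.5 CPM. These pooled levels were not tested.

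By IR day 3, 7 of the 9 genes were higher than in sham day 1 and 0 lower, against 1.70% and 0.998% of all 6511 genes, with a median log2 fold change of 3.70 over the 9 and 0.22 over all. Postn reached 3561, 6154, 2709 and 6821 CPM, far above the sham plates (6.55 ± 0.93, adjusted p 0.000365). Fn1 reached 3378, 4659, 1864 and 4474 CPM against 114, 406 and 390 in sham (3.70 ± 0.65, adjusted p 0.00371). These were the 2 genes whose call held whichever plate was left out.

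Sparc read 12980, 16780, 14170 and 18310 CPM against 3327, 5917 and 3447 in sham day 1 (2.02 ± 0.50, adjusted p 0.0314). Cthrc1 read 957, 757, 671 and 1042 CPM, 42.1 times the pooled sham level, with an interval of 14.3 to 205 since sham held 3 UMIs, all in 1 cell (adjusted p 0.0234). Ctgf read 997, 982, 1914 and 858 CPM (3.87 ± 0.82, adjusted p 0.0126), Thbs1 305, 750, 49.7 and 271 (3.61 ± 0.91, adjusted p 0.0317) and Tnc 20.4, 623, 621 and 528, where sham held 1 UMI (86.7 times, interval 15.4 to 3436, adjusted p 0.00935). Of these 5, only Tnc had a plate, replicate 3, within the sham range.

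With 3 sham plates the day 3 calls were fragile. The number of genes higher fell from 7 to 2 without sham replicate 1, to 4 without replicate 3 and to 3 without replicate 4. Sparc missed the threshold without sham replicate 1 (adjusted p 0.135) or 4 (0.14) and without IR day 3 replicate 4 (0.0667) or 7 (0.0695), and Thbs1 without any 1 sham plate (0.119, 0.101 and 0.11) or IR day 3 replicate 4 (0.115). Cthrc1 missed it without any 1 sham plate (0.0963, 0.0688 and 0.106), Ctgf without sham replicate 1 (0.068) or 4 (0.0825), and Tnc without sham replicate 1 (0.0542) or 3 (0.0657). Tnc also missed it with plates of at least 10 cells (0.0624), and Sparc (0.0681), Thbs1 (0.0681) and Ctgf (0.0544) with plates of at least 3. No direction changed. With the single sham day 14 plate added to the control, Ctgf (2.16, adjusted p 0.132) and Sparc (1.40, adjusted p 0.166) were no longer called. That plate read 999 CPM for Ctgf, within the range of the IR day 3 plates, and 10810 for Sparc, below all 4 of them and above the 3 sham day 1 plates.

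Thbs2 and Fbn1 did not pass the test at IR day 3. Thbs2 read 407, 435, 149 and 396 CPM (0.47, adjusted p 0.639). Fbn1, fibrillin-1, is the backbone of microfibrils that store latent TGF-beta. It read 1404, 2187, 1665 and 1225 CPM against 398, 1885 and 1041 in sham (0.61, adjusted p 0.55), and its pooled fibroblast-like level lay between 1279 and 1858 CPM in all 6 groups.

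The step from day 1 to day 3 of IR could be tested without sham. Of the 9 genes 5 rose and 2 fell, where 12.0% of all genes were called higher and 10.5% lower, and the median was 2.38 over the 9 against 0.05 over all. Fn1 rose most, by 4.31 ± 0.52 on the log2 scale (adjusted p 6.51e-06), from 55 to 571 CPM over the IR day 1 plates to 1864 or more. Thbs2 rose by 3.62 ± 0.47 (adjusted p 1.05e-05), Cthrc1 by 3.21 ± 0.70 (0.00208), Postn by 2.74 ± 0.56 (0.00104) and Sparc by 2.38 ± 0.42 (0.000306), and none of these groups overlapped. Tnc fell by 1.75 ± 0.52 (adjusted p 0.0171) and Thbs1 by 1.78 ± 0.51 (0.0133). The Tnc call was lost without IR day 1 replicate 9 (-1.38, adjusted p 0.0554) and with the replicate number as a block (-1.32, 0.199). The Thbs1 call was lost with plates of at least 3 cells (-1.90, adjusted p 0.0594). Ctgf (-1.41, adjusted p 0.0608) and Fbn1 (0.71, 0.233) did not pass.

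The 2 fibroblast clusters showed parts of this step separately. In the cluster that also held the sham cells, pooled Postn was 74.4 CPM over 10 cells at IR day 1 and 5797 over 60 cells at IR day 3, Fn1 298 and 5132, Sparc 3927 and 16620, and Cthrc1 0 and 726. In the cluster led by Cxcl5 and Timp1, Postn was 1316 over 40 cells and 5973 over 13, Fn1 267 and 2501, Sparc 4199 and 16390, and Cthrc1 185 and 1065. All 4 levels were higher at day 3 in both clusters. Tnc went from 0 to 293 CPM in the first and from 1486 to 1137 in the second, and Thbs2 from 461 to 464 and from 48.5 to 266. These pooled levels were not tested.

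Day 14 rested on 2 plates of IR with 5 or more fibroblast-like cells, 1 of which stood apart from day 3 in several genes. Replicates 1 and 3 read 688 and 3995 CPM for Postn, 0 and 90.1 for Tnc, 0 and 165 for Cthrc1, 755 and 1149 for Fn1 and 2908 and 1164 for Ctgf. Against IR day 3, a comparison added after the data had been seen, 0 of the 9 were called by edgeR, where 0.691% of all genes were higher and 0.645% lower, although 4 had an unadjusted p under 0.05 (Tnc -2.99, Fn1 -1.997, Cthrc1 -3.05 and Thbs2 -1.10) and DESeq2 called 1, as did edgeR without IR day 3 replicate 3. Both day 14 plates lay below all 4 day 3 plates for Fn1, Sparc and Cthrc1. Day 14 IR was not compared with day 14 sham in fibroblasts, since sham had 1 plate.

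**Figure D3:**
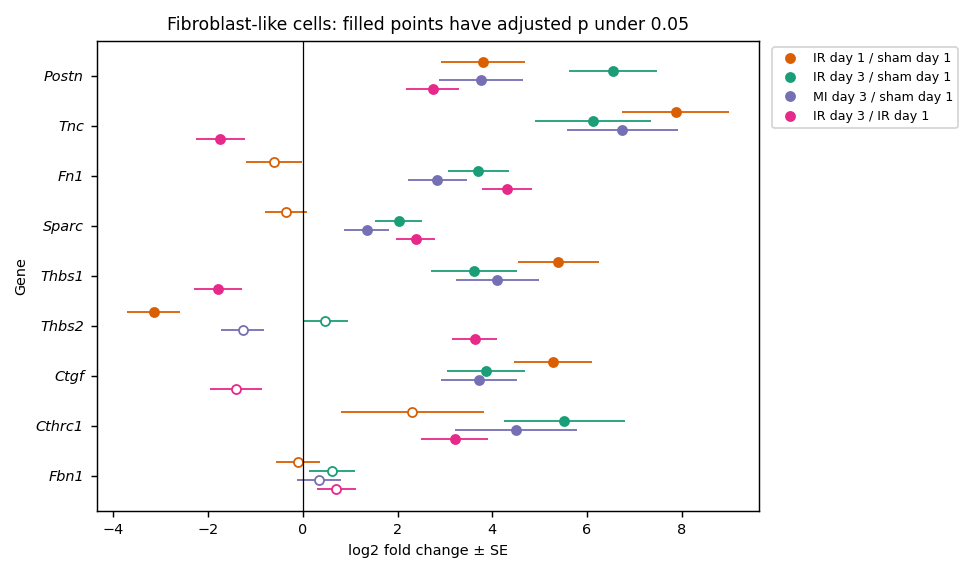
Log2 fold change with its standard error for each gene in fibroblast-like cells, for IR day 1, IR day 3 and MI day 3 against sham day 1 and for IR day 3 against IR day 1; filled points have an adjusted p under 0.05. Postn, Tnc, Thbs1 and Ctgf are filled in all 3 comparisons with sham, Thbs2 lies at -3.16 at IR day 1, and the values of Tnc and Cthrc1 against sham rest on 1 and 3 sham UMIs and are no bound.

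At MI day 3, 7 of the 9 genes were higher in fibroblasts than in sham day 1 and 0 lower, where 10.3% of all genes were higher and 7.19% lower. The median was 3.71 over the 9 and 0.29 over all. Postn read 911, 658, 666, 508 and 1011 CPM (3.76 ± 0.88, adjusted p 0.00439), Fn1 2203, 1751, 1922, 2258 and 2376 (2.84 ± 0.62, 0.00239), Thbs1 446, 572, 566, 813 and 439 (4.11 ± 0.87, 0.00193) and Ctgf 947, 1050, 1105, 1076 and 1104 (3.71 ± 0.80, 0.00225). Every MI plate lay above every sham day 1 plate in these 4 genes. Tnc read 873, 375, 1173, 544 and 802 CPM, 119 times the pooled sham level (interval 21.3 to 4700, adjusted p 0.000238).

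Cthrc1 and Sparc passed by less. Cthrc1 read 569, 458, 458, 364 and 379 CPM, 23.0 times sham (interval 7.87 to 112, adjusted p 0.0167), and its call was lost without any 1 sham plate (0.0775, 0.052 and 0.0712). Sparc read 10850, 10200, 9172, 10980 and 9590 CPM (1.34 ± 0.47, adjusted p 0.04995). Its call was lost without sham replicate 1 (0.194) or 4 (0.187), and without any 1 MI plate (0.077, 0.0714, 0.064, 0.0756 and 0.0655). It was also lost by DESeq2 (0.0781), with RLE scaling (0.0967) and with the single sham day 14 plate, at 10810 CPM, added to the control (0.73, adjusted p 0.294). Thbs2 at 185, 110, 92.6, 112 and 75.8 CPM fell short on the other side (-1.27 ± 0.45, adjusted p 0.05035), with every MI plate below every sham plate. Fbn1 gave 0.34 (adjusted p 0.652).

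Set against IR day 3, MI fibroblasts held less Postn and less Thbs2. Postn differed by -2.78 ± 0.55 (adjusted p 0.0013) and Thbs2 by -1.74 ± 0.35 (0.00164), and 2 of 9 lower compares with 6.53% of all genes lower and 4.05% higher. With the replicate number as a block in edgeR, the Thbs2 call was lost (-1.53, adjusted p 0.0814). The highest MI plate for Postn, at 1011 CPM, was below the lowest IR day 3 plate, at 2709, whereas the Thbs2 plates overlapped through IR day 3 replicate 5. The other 7 genes differed by between -1.01 (Cthrc1) and 0.62 (Tnc) and did not pass. Within the cluster led by Cxcl5 and Timp1, which held 13 IR day 3 and 131 MI cells, Postn was 5973 and 760 CPM and Thbs2 266 and 118. The ligation, the protocol label and the depth of these cells cannot be told apart.

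Presence of a transcript was also read cell by cell in fibroblasts. With each cell thinned to 1000 UMIs, Tnc was seen in 0% of cells in sham day 1, in 46.0%, 15.1% and 10.7% at days 1, 3 and 14 of IR, and in 35.6% of MI cells, while Postn was seen in 3.33%, 32.0%, 80.8%, 60.7% and 43.2%. With only 30 sham cells, the 0 for Tnc leaves room for a small share of cells with a UMI at this depth, and the same cells held 1 Tnc UMI before thinning. In macrophage-like cells, at most 6.70% of cells of any group had Postn and 3.20% had Tnc. For Cthrc1 the shares were 0% in sham day 1, 4.00% and 34.2% at days 1 and 3 of IR, and 28.0% in MI. The median fibroblast held 2 of the 9 genes in sham day 1, 3.5 at IR day 1, 5 at IR day 3, 3 at IR day 14 and 4 in MI, and the share with at least 4 of them was 6.67%, 50.0%, 79.5%, 39.3% and 62.1%. Sham day 14 had a median of 2 and a share of 20%. The order depended on depth. At 3000 UMIs, which 20, 10, 46, 34, 16 and 130 cells reached, the share was 30% in sham day 1 and 50.0% in sham day 14, 80.4%, 88.2% and 68.8% at days 1, 3 and 14 of IR, and 94.6% in MI, so MI and not IR day 3 was highest.

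Fn1 moved in opposite directions in fibroblasts and macrophages between day 1 and day 3 of IR. In macrophage-like cells Fn1 was highest at IR day 1, with a lowest plate of 4059, a median of 5383 and a highest of 7669 CPM over 9 plates, and lower at IR day 3, with 781, 1270 and 2717 CPM over 6. The change was -1.99 ± 0.25 (edgeR, adjusted p 1e-06), and no plates overlapped. Thbs1 went from 702, 2553 and 7863 CPM to 34.0, 126 and 409 (-3.75 ± 0.52, adjusted p 3.86e-06), also without overlap. These were 2 genes lower of the 5 that could be tested, where 14.0% of 5138 genes were higher and 12.1% lower. Tnc, Thbs2, Cthrc1 and Fbn1 did not pass the filter on low counts in macrophages, and Postn, Sparc and Ctgf did not pass the test.

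**Figure D4:**
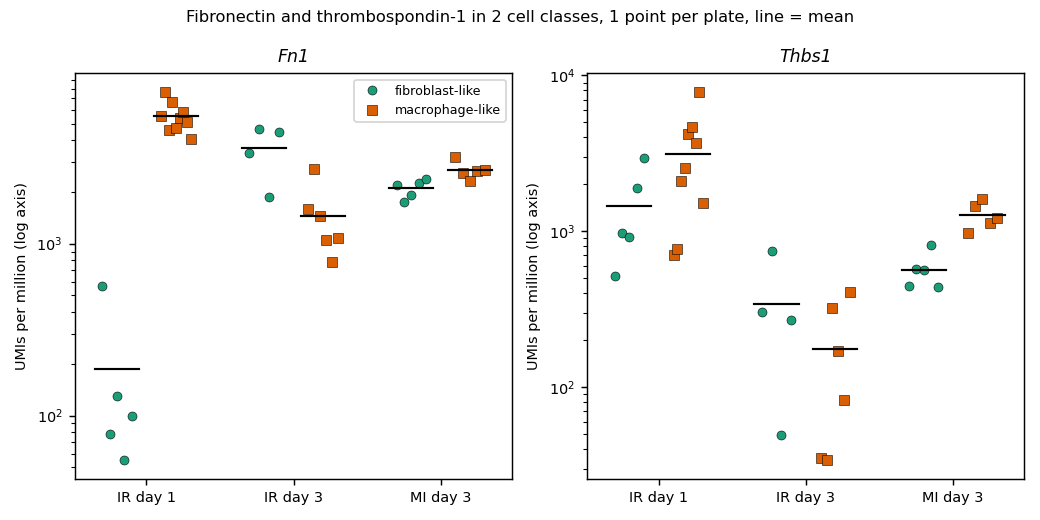
CPM of Fn1 and Thbs1 (log axis) in fibroblast-like cells (circles) and macrophage-like cells (squares), 1 point per plate with at least 5 cells of the class, with group means as lines. At IR day 1 every macrophage point for Fn1 is above every fibroblast point, and at IR day 3 the fibroblast plates reach from 1864 to 4659 CPM and the macrophage plates from 781 to 2717.

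The difference between the classes was tested by itself, in a fit added after the data had been seen. The Fn1 change in fibroblasts exceeded that in macrophages by 6.50 ± 0.65 on the log2 scale (edgeR, adjusted p 2.66e-07), where 4.87% of 3367 genes were called in either direction. The fit had no term for the plate, so sums of both classes from the same plate were treated as independent. The Fn1 adjusted p stayed at or below 2.8e-06 when any 1 of these sums, 1 class of 1 plate, was left out. Over the 4 and 5 plates with both classes, the fibroblast minus macrophage difference in log2(CPM + 10) was 0.31 to 2.03 at day 3 and -6.50 to -2.99 at day 1. An exact two-sided permutation test over these plates gave p 0.0159, the smallest such plates allow, and 0.0794 after adjustment over 5 genes. For Thbs1 the difference was 2.22 (adjusted p 0.174) and did not pass. The macrophage-like cells of the 2 days lay mostly in different clusters, 100 IR day 1 cells in one and 141 IR day 3 cells in another. Summed macrophage markers in these cells had medians of 7749 CPM at IR day 1 and 16350 at IR day 3, and summed fibroblast markers 372 and 1112. Summed neutrophil markers had medians of 685 and 110 CPM, and of 861 in MI. Their part in the change was not tested.

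In MI macrophages both genes stood above IR day 3. Thbs1 read 978, 1448, 1601, 1136 and 1212 CPM, above every IR day 3 plate (2.48 ± 0.53, adjusted p 0.0023). Fn1 read 3184, 2567, 2325, 2648 and 2685 CPM (0.98 ± 0.26, adjusted p 0.017), and the highest IR day 3 plate overlapped. These 2 of 5 tested compare with 4.44% of genes higher and 3.87% lower. The Fn1 call was lost when IR day 3 replicate 7 (0.93, adjusted p 0.0702), MI replicate 1 (0.90, 0.0704) or MI replicate 5 (0.96, 0.0506) was left out. Most MI macrophages (218 cells) were in the cluster that held most IR day 1 macrophages, together with 24 IR day 3 cells. Sham day 1 macrophages, on 3 plates, read 5764, 3324 and 1587 CPM for Fn1 and 2409, 537 and 1705 for Thbs1, so that for Fn1 1 of the 3 plates lay within the IR day 1 range and the others below it.

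Endothelial cells held Sparc in all 6 groups, and Sparc, Fn1, Thbs1 and Ctgf were higher in MI than in sham. The class was split between a cluster led by Cd300lg and Ly6c1, which held (duplicates included) 82 of the sham day 1, 60 of the sham day 14, 29 of the IR day 1 and 4 of the MI cells, and one led by Plvap and Vwf, which held 30, 20, 46 and 52. Only 5 of the 9 genes passed the filter there, the fifth being Fbn1. Sparc ran from 3384 to 4093 CPM in 4 sham day 1 plates, from 3236 to 4477 in 4 of sham day 14, from 3233 to 8975 in 8 plates at IR day 1, and from 6343 to 11580 in 5 MI plates. Against both sham groups, MI gave 1.12 ± 0.27 for Sparc (adjusted p 0.00104), 3.40 ± 0.65 for Fn1 (7.47e-05), 5.31 ± 0.94 for Thbs1 (3.54e-05) and 2.03 ± 0.56 for Ctgf (0.00409), where 19.9% of 3345 genes were higher and 17.5% lower. MI plates lay above every sham plate for the first 3 of these. Fn1, for example, read 561 CPM or more in MI and at most 225 in sham.

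At IR day 1, endothelial Thbs1 rose by 3.92 ± 0.81 (adjusted p 0.00104), with a median of 144 CPM over 8 plates against 8.56 over 4 sham plates, and 7.26% of genes were higher and 8.04% lower. Ctgf was also called (2.04 ± 0.61, adjusted p 0.0198), but not without sham day 1 replicate 2 (adjusted p 0.0793), 3 (0.117) or 4 (0.0664) or IR day 1 replicate 7 (0.0801). At IR day 3, 0 of 5 were called (2 at an unadjusted p under 0.05, with 1.49% of genes higher and 0.209% lower). At IR day 14 against sham day 14 it was 0 of 5 (0 unadjusted, with 0% of genes either way), and for MI against IR day 3 also 0 of 5 (1 unadjusted, 1 called without IR day 3 replicate 4, with 1.64% higher and 4.30% lower). Summed fibroblast markers in these endothelial-like cells had medians of 840 CPM in sham day 1, 311 at IR day 1, 2395 at IR day 3 and 1706 in MI, and summed macrophage markers 231, 187, 852 and 379. Summed cardiomyocyte markers had medians of 16060 CPM in sham day 1 and 29030 in sham day 14, against 184 in MI. The part of such RNA was not tested.

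Cardiomyocyte-like cells of sham hearts had a median of at most 8.74 CPM of Postn or Fn1, against 249 and 260 CPM of Sparc. At IR day 3, Postn, Fn1 and Sparc were called against both sham groups, 3 of 6 genes that passed the filter, where 4.65% of 3982 genes were higher and 2.64% lower. Postn had a median of 175 CPM over 4 plates against 2.14 and 0 in sham day 1 and day 14 (adjusted p 1.14e-09), and its pooled level was 78.2 times that of sham, which held 3 UMIs (interval 26.4 to 382). Fn1 had a median of 204 against 2.14 and 8.74 (4.50 ± 0.55, 5.27e-08) and Sparc of 873 against 249 and 260 (1.42 ± 0.29, 0.000562). One IR day 3 plate had no Postn. The cluster led by Sprr1a, Nmrk2 and Nppa held 156 of the IR day 3 cells, but 4 of the sham day 1 and 2 of the sham day 14 cells. At the same time summed fibroblast markers in cardiomyocyte-like cells went from medians of 508 and 395 CPM in sham to 2484, and macrophage markers from 63.1 and 58.2 to 1018, and their part in these calls was not tested.

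At IR day 1 and in MI, cardiomyocytes rested on 2 plates each. Fn1, Thbs1 and Ctgf were called in both, with 3.74% of genes higher and 6.58% lower at IR day 1 and 15.8% and 22.9% in MI. The cluster led by Sprr1a, Nmrk2 and Nppa, with its 4 and 2 sham cells, held 26 of the IR day 1 cardiomyocyte-like cells, the other such clusters holding 5, and all 19 of MI. Without IR day 1 replicate 3 the count was 0, Thbs1 turned to -3.62 and Ctgf to -0.08, and without MI replicate 3 the count was 0 and Ctgf turned to -6.57, while without MI replicate 2 Fn1 (3.18, adjusted p 0.0562) and Thbs1 (4.27, 0.0835) were lost. Each of these fits leaves 1 plate in the injured group, which is assumed to vary like the other groups. DESeq2 did not call Thbs1 (adjusted p 0.133) or Ctgf (0.0567) at IR day 1, nor Fn1 (0.0514), Thbs1 (0.187) or Ctgf (0.0722) in MI. Thbs1 in MI also missed the threshold against sham day 1 alone (2.08, adjusted p 0.217), with wells of at least 2000 UMIs (0.0628), with copied wells kept (0.0579) and without sham day 14 replicate 1 (0.0536) or 8 (0.0542). The fibroblast markers, at the medians of 508 and 395 CPM in sham, were at 2348 at IR day 1 and 1397 in MI, and macrophage markers at 451 and 302. The part of such RNA was not tested. At IR day 14, 0 of 6 were called by edgeR (1, Postn, at an unadjusted p under 0.05, with 0.0753% of genes higher and 0.0251% lower).

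Summed over all cells of a plate, 6 of the 9 genes rose at IR day 1, 8 at IR day 3 and all 9 in MI, and none was called at IR day 14. In such sums more cells of a type and more RNA per cell cannot be told apart. Fibroblast-like cells were a median of 6.96% of cells in sham day 1, 2.70% in sham day 14, 10.6% at IR day 1, 9.99% at IR day 3, 3.74% at IR day 14 and 19.1% in MI, and summed fibroblast markers had medians of 5437, 1602, 6075, 10390, 3364 and 15100 CPM. Summed macrophage markers had medians of 1473 CPM in sham day 1 and 80.3 in sham day 14, against 3356 at IR day 1, 7658 at IR day 3, 105 at IR day 14 and 5324 in MI. Those of cardiomyocytes were 37080 and 61050 CPM in the sham groups, 2114, 25390 and 78850 at days 1, 3 and 14 of IR, and 1166 in MI. Summed neutrophil markers stood highest at IR day 1, at 4567 CPM against 365 in sham day 1. The part of these movements in the calls was not tested. At IR day 1, 6 of the 9 rose against sham day 1, with 19.7% of 9279 genes higher and 16.9% lower and a median of 3.13 over the 9 against 0.10 over all. Tnc was 0, 0, 2.81 and 5.78 CPM in sham day 1 and 31.3, 351 and 892 at the lowest, the median and the highest of 9 IR day 1 plates (adjusted p 2.84e-07), 189 times the pooled sham level (interval 73.6 to 694). Postn (4.10 ± 1.11, adjusted p 0.00345) and Ctgf (3.73 ± 0.75, 0.000165) did not overlap either, and Thbs1 (3.13, 0.00351), Fn1 (2.07, 0.00826) and Cthrc1 (0.0116) did.

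Cthrc1 rested on a few plates at IR day 1. Replicates 1, 2 and 3 read 142, 122 and 99.7 CPM and the other 6 between 0 and 9.83. With the first 3 left out the log2 fold change was 0.55 (adjusted p 0.804). Over the pooled cells Cthrc1 was 30.7 times sham day 1 (interval 10.3 to 150), where sham held 3 UMIs from 1 cell.

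**Figure D5:**
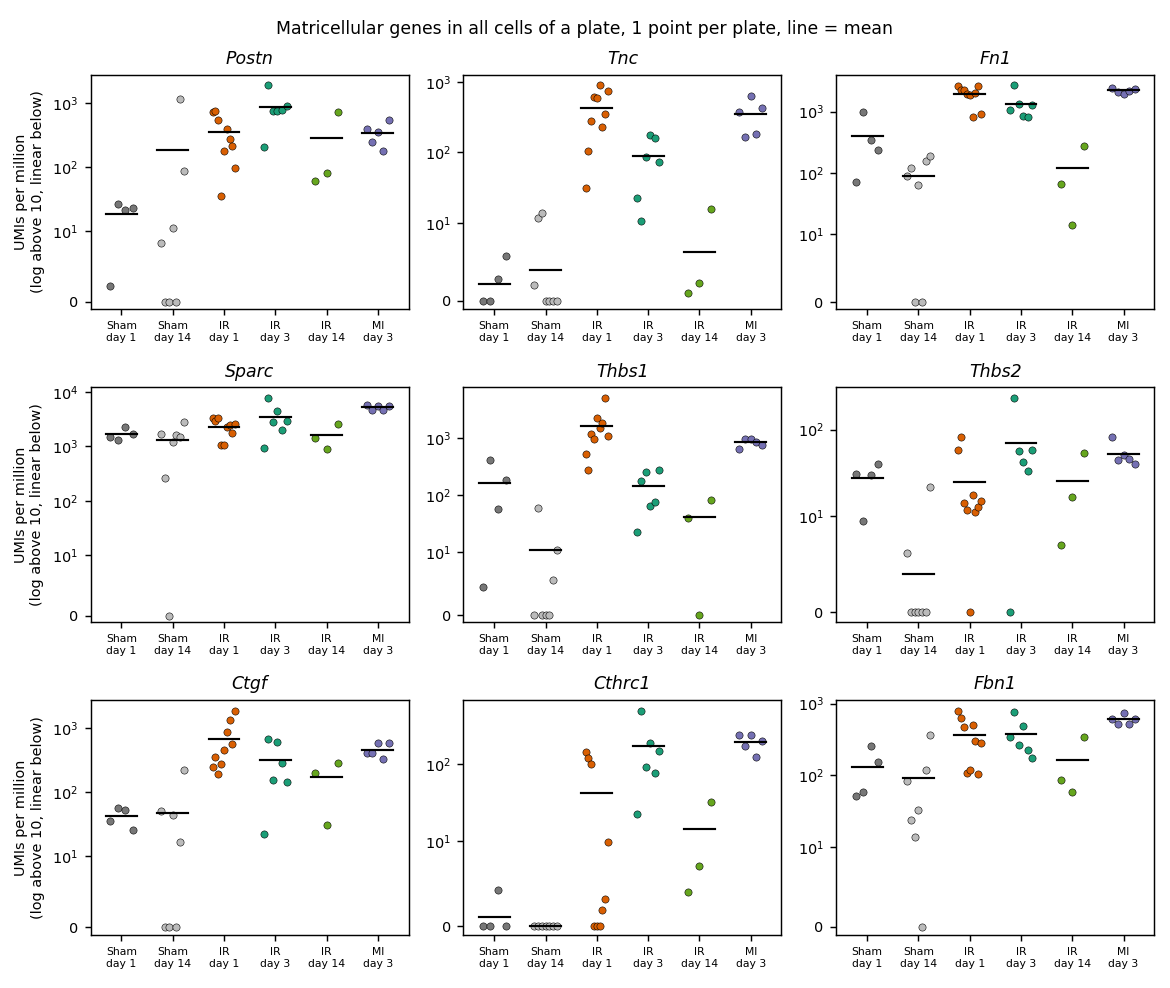
CPM of each gene in all cells of a plate (log scale above 10 CPM, linear below), 1 point per plate, with the group mean as a line. Cthrc1 was at 0 in all 7 sham day 14 plates and in 3 of 4 sham day 1 plates, and Postn in sham day 14 ranged from 0 to 1189 CPM through a single plate.

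At day 3, 8 of the 9 rose in IR against the mean of both sham groups (18.6% of genes higher, 11.4% lower, median 2.36 over the 9 and 0.11 over all) and all 9 in MI (33.1% and 23.5%, 2.85 and 0.20). Cthrc1 ran from 22.7 to 494 CPM in IR and from 122 to 244 in MI against at most 4.22 in any sham plate, 127 times (interval 43.1 to 617) and 213 times (72.8 to 1032) the pooled sham level, with adjusted p 1.35e-05 and 1.19e-06. Sparc did not pass in IR (1.06, adjusted p 0.0783) and did in MI (1.57, 0.00565). In IR the plates of 7 of the 8 called genes overlapped those of sham, all but Cthrc1. In MI those of Postn and Thbs2 did, and the other 7 did not.

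Several day 3 calls turned on the sham plates. Against sham day 1 alone, Sparc (1.35, adjusted p 0.0795) and Thbs2 (0.67, 0.352) were not called in MI, nor Fn1 (1.54, 0.0772), Thbs2 (1.11, 0.198) and Fbn1 (1.31, 0.135) in IR, and against sham day 14 alone Postn was not called in IR (1.99, 0.0714). Thbs1 in IR gave 1.96 (adjusted p 0.0431) against both sham groups and -0.12 (0.936) against sham day 1 alone, and it missed the threshold without sham day 1 replicate 1, 3 or 4 (adjusted p 0.0803, 0.0909 and 0.056), without sham day 14 replicate 1, 5, 6, 8 or the plate under 2 numbers (0.109, 0.0936, 0.0626, 0.0507 and 0.0572), or without IR day 3 replicate 3, 4 or 7 (0.0571, 0.127 and 0.154). Thbs1 in IR also missed the threshold by DESeq2 (1.33, adjusted p 0.197), with RLE scaling (0.0561), without Rn45s (0.0519) and without cells of mixed markers (0.0725). Fbn1 in IR (1.39, adjusted p 0.0271) missed it without sham day 1 replicates 1 (0.0802) or 2 (0.0766), sham day 14 replicates 1 (0.0551) or 5 (0.056), or IR day 3 replicates 3 (0.118) or 5 (0.0553), and with wells of at least 2000 UMIs (0.0984). Postn in MI gave 2.26 (adjusted p 0.0124), 0.0510 without MI replicate 5, and 0.52 (0.631) against sham day 14 alone. That group held the plate deposited under 2 numbers, at 1189 CPM, and 104 of the 128 Postn UMIs of sham day 14 fibroblasts (81.2%) came from 1 cell of 6675 UMIs. For MI against IR day 3, Tnc (1.77 ± 0.57, adjusted p 0.0271) and Thbs1 (2.26 ± 0.74, 0.028) were called, with 7.69% of genes higher and 9.75% lower. The count fell to 0 when IR day 3 replicate 1 or MI replicate 3 was left out, and to 1 without any other plate of these groups save MI replicate 4.

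At day 14, 0 of the 9 were called against sham day 14 in plate sums by edgeR (0.0108% of genes higher, 0% lower), 3 at an unadjusted p under 0.05: Thbs2, Ctgf and Cthrc1. Cthrc1 read 3.97, 7.06 and 32.4 CPM in the 3 IR plates and 0 in all sham day 14 plates. The sham sums held from 17155 to 484913 nuclear UMIs, so a 0 in the smallest says little at such levels. The question whether the effect of IR differed between day 14 and day 1 was tested as an interaction. None of the 9 passed (12.3% of genes higher, 5.63% lower), with 4 at an unadjusted p under 0.05, Tnc at -5.91, Postn at -3.46, Ctgf at -2.23 and Thbs2 at 2.41. DESeq2 called 3. Without IR day 14 replicate 3, edgeR called 3, and without sham day 1 replicate 2 or IR day 1 replicate 1 or 2 it called 1.

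Other genes of the same families were read in fibroblasts from lists written with earlier results of these data known. Of 13 further matricellular genes tested, 2 rose and 5 fell at IR day 1 against sham day 1 (median -1.27), where 11.3% of all genes were higher and 8.37% lower (median 0.19). From IR day 1 to day 3, 6 rose and 0 fell (1.97), where 12.0% were higher and 10.5% lower (0.05). Wisp1, a relative of Ctgf, had 0 UMIs in sham day 1 fibroblasts and was at least 9.41-fold higher at IR day 1, 14.8-fold at IR day 3 and 11.7-fold in MI, against a floor of 3 UMIs. Spp1, osteopontin, stood at 6.64 CPM (1 UMI) in sham day 1, 32.1 at IR day 1, 3431 at IR day 3 and 1058 in MI. It was also called at IR day 3 in endothelial-like (6.71, adjusted p 0.00107) and cardiomyocyte-like cells (6.62, 1.31e-11), and macrophage markers reached 2697 CPM in 1 of the IR day 3 fibroblast plates, whose part was not tested. Thbs4 stood at 0, 2.14, 606 and 18.5 CPM in the same groups. Both rose from IR day 1 to day 3 (adjusted p 0.000355 and 0.00149), and Thbs4 was lower in MI than at IR day 3 (-5.20, adjusted p 0.00074). Tnxb, a tenascin of quiescent connective tissue, fell against sham day 1, with log2 fold changes of -2.51 at IR day 1, -3.01 at IR day 3 and -4.97 in MI (adjusted p 0.002, 0.0126 and 2.03e-07).

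Fbn1 itself did not pass the test in any fibroblast comparison. Of 16 genes for fibrillins, fibulins, elastin and latent TGF-beta binding proteins, 1 rose and 5 fell at IR day 1 (median -0.50) and 7 rose and 0 fell from IR day 1 to day 3 (1.57), beside the same shares of all genes. In MI against IR day 3, 0 were higher and 7 lower (-1.14), where 4.05% of all genes were higher and 6.53% lower (0.04). Ltbp2 had 0 UMIs in sham day 1 and was at least 12.4-fold higher at IR day 1, 15.8-fold at IR day 3 and 19.4-fold in MI. Elastin (Eln) rose by 5.07 ± 1.11 from IR day 1 to day 3 (adjusted p 0.00201) and was lower in MI than at IR day 3 (-3.15 ± 0.86, 0.0186), and Mfap4 gave 4.33 ± 0.53 and -2.67 ± 0.41 (6.57e-06 and 7.36e-05). Ltbp4 fell against sham day 1, by 1.76 at IR day 3 and by 3.14 in MI (adjusted p 0.0315 and 4.62e-06).

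Of 11 receptor genes tested, 3 rose and 4 fell at IR day 1 against sham day 1 (median 0.64), beside 11.3% and 8.37% of all genes. Sdc1 and Sdc4 are syndecans, surface proteoglycans that bind fibronectin. Sdc1 was 14.68 times its pooled sham level of 3 UMIs (interval 4.97 to 71.6, adjusted p 6.3e-05) and Sdc4 rose by 3.03 ± 0.53 (0.000341), as did Itga5, a chain of the fibronectin receptor (1.96, 0.0329). Cd36, which binds thrombospondin-1, fell by 4.28 ± 0.88 (0.00136). From IR day 1 to day 3, Sdc4 fell by 3.87 ± 0.47 (6.51e-06) and Itga5 by 2.44 ± 0.54 (0.00219), and Cd36 rose by 4.60 ± 0.73 (1e-04). In MI against sham day 1, where 10.3% of all genes were higher and 7.19% lower, 1 rose and 2 fell (Sdc1, 16.2 times with an interval of 5.55 to 78.8, Cd36 at -4.51 and Lrp1 at -1.54). Endothelial cells also express Cd36. Summed endothelial markers in these fibroblast-like cells had medians of 759 CPM in sham day 1, 111 at IR day 1, 322 at IR day 3 and 87.8 in MI, and their part in the Cd36 values was not tested.

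The pattern of each gene over cell class and group was compared with that of 12176 other genes across 22 points, each a class in a group with at least 20 cells, by Pearson's r of log2(CPM + 10). The points share plates and depth, and the values are a description. Nearest to Postn were Cthrc1 (r 0.908), Ltbp2 (0.903) and Col8a1 (0.901), and nearest to Cthrc1 were Lox (0.955), Loxl3 (0.949) and Col1a1 (0.935). Thbs2 was nearest to Col6a1 (0.975), Col6a3 (0.967) and Col8a1 (0.96), Fbn1 to Ccdc80 (0.973), Fstl1 (0.972) and Bmp1 (0.97), and Sparc to Igfbp7 (0.97), F2r (0.964) and Nid1 (0.955). Thbs1 was nearest to Slc16a3 (0.94), Ccl2 (0.908) and Nr4a2 (0.908), Fn1 to Emp3 (0.901), Myof (0.899) and Tbcb (0.894), Tnc to Cyp51 (0.926), Adam12 (0.914) and Ckap4 (0.901), and Ctgf to Pknox2 (0.887), Prrx2 (0.879) and Pappa (0.87). Among the 9, Thbs2 and Fbn1 were the closest pair (0.943), Fn1 and Thbs1 stood at 0.796, and Sparc and Thbs1 at -0.094.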

How the data were processed

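SORT-seq data of 36 plates of 384 wells were used. Per the file headers, the deposited values are UMI counts per gene and well, with 20848 genes listed; the authors aligned reads with BWA to GRCm38 (mm10), per the submitters' processing notes, which give no versions. UMIs were 6 bases long, so a gene can reach 4096 UMIs in a well.

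Mitochondrial and spike-in rows were left out (20720 genes kept), as were wells under 1000 UMIs. Wells copied between plates (41, of which 20 of this depth) were removed, and sham day 14 replicates 2 and 7 were averaged. Cells were clustered in scanpy 1.11.5 (2000 variable genes without the 9, 30 components, 15 neighbours, Leiden resolution 1), and a cluster was named from at least 3 markers at 2-fold or more. Doublets were not called. UMIs were summed per plate and class (at least 5 cells) and tested in edgeR 4.0.16 (filterByExpr, TMM, quasi-likelihood F test, Benjamini-Hochberg adjustment, threshold 0.05). Exact tests used scipy 1.17.1. Ratio intervals are at 95% and cover counting error only, and where sham held 0 UMIs only their lower limit is given.

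The members and gene lists were chosen with earlier results of these data known. The 9 members are always named. Of each other list at most 4 genes per comparison are eligible, those past the threshold with the largest fold change, and likeness gives 3 genes per member. Day 3 fibroblasts were set against sham day 1 alone, since sham day 14 had 1 plate, whereas both had been intended. The alternatives tried were DESeq2 1.42.0, RLE scaling, no filter, other well and cell minima, Rn45s left out, mixed or copied wells, 1 sham group, the replicate number as a block, and each plate left out. After seeing the data, at least 3 cells per plate, both shams in fibroblasts, IR day 1 plates 1 to 3 left out, IR day 14 against day 3 and the difference between classes were added. In simulated counts with known changes, 189 of 192 changed genes were recovered in plate sums (8679 genes), 116 of 170 in fibroblasts (5157), 171 of 178 in endothelial cells (2949) and 95 of 181 in cardiomyocytes (3248) for IR day 1 against sham day 1, and 177 of 179 in macrophages (4076) for IR day 3 against day 1 and 163 of 182 for the difference between classes (3367).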

Additional observations from a re-analysis of the deposited data

Results flagged for a closer look

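A plate was picked out where its gap to the nearest plate of its group was large against the group's range. For normally distributed values chance gives this in about 1 of 20 groups, a rate that counts near 0 need not keep. In all, 25 of 103 groups held such a plate. In sums over all cells of a plate, these were Cthrc1 in sham day 1 replicate 3 at 4.22 CPM (3 UMIs, with the others at 0), Postn in the sham day 14 plate deposited under replicates 2 and 7 at 1189 CPM (next plate 87.0), Thbs1 in sham day 14 replicate 3 at 58.9 (next 10.9), and Thbs2, Ctgf and Fbn1 in sham day 14 replicate 8 at 21.8, 225 and 366 (next 6.19, 51.6 and 117). Thbs1 in IR day 1 replicate 8 stood at 4948 CPM (next 2241), Fn1, Thbs2 and Cthrc1 in IR day 3 replicate 3 at 2678, 231 and 494 (next 1330, 57.4 and 191), and Thbs2 in MI replicate 1 at 82.7 (next 50.9).

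In fibroblast-like cells, Postn, Fn1 and Cthrc1 in IR day 1 replicate 3 stood at 2047, 571 and 380 CPM (next plates 733, 131 and 50.0). Tnc in IR day 3 replicate 3 was low at 20.4 CPM (next 528), Thbs2 in IR day 3 replicate 5 low at 149 (next 396), and Ctgf in the same plate high at 1914 (next 997).

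In endothelial-like cells, Thbs1 in sham day 1 replicate 3 stood at 18 CPM (next 8.78), Ctgf in sham day 1 replicate 1 at 66.7 (next 17.6), Sparc in the sham day 14 plate under 2 numbers at 4477 (next 3329), Fn1 and Thbs1 in IR day 1 replicate 1 at 2439 and 667 (next 402 and 309), and Thbs1 in MI replicate 4 at 425 (next 125). In cardiomyocyte-like cells, Fn1 in sham day 1 replicate 2 stood at 25.9 CPM, from 4 UMIs (next 4.28), and Postn in sham day 14 replicate 1 at 4.67 CPM, from 1 UMI, with the others at 0.

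The change of Fn1 from IR day 1 to day 3 differed between classes, by 6.50 on the log2 scale (edgeR, adjusted p 2.66e-07), with fibroblast-like cells up and macrophage-like cells down. That fit had no term for the plate. The permutation test over plates with both classes gave 0.0794 after adjustment over 5 genes.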

How the results depend on the processing

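Of the counts of genes past the threshold, 204 of 231 alternative values other than leaving out a plate stayed within 1.5 times the reported one, as did 256 of 284 with 1 plate left out. Of the called fold changes, 716 of 763 and 827 of 900 kept direction and call. Where a count moved, the cause was not tested unless given.

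In plate sums, IR day 3 had 4 genes called against sham day 1 alone (8 against both shams), with Thbs1 at -0.12, MI against IR day 3 had 1 by DESeq2 (2 by edgeR), and the interaction of day and IR had 3 by DESeq2 and 2 without IR day 1 plates 1 to 3 (0 reported). In fibroblasts, IR day 3 had 4 called with plates of at least 3 cells (7 reported), MI against IR day 3 had 4 with at least 10 cells (2 reported), and IR day 14 against IR day 3 had 1 by DESeq2 and 3 with no filter (0 reported). With no filter, which adds genes of low counts, 4 were called in endothelial cells at IR day 1 (2 reported) and 4 at IR day 3 (0), 2 for MI against IR day 3 (0), 4 in each macrophage comparison (2), and 1 and 7 in cardiomyocytes at IR day 14 (0) and day 3 (3). In endothelial cells, 1 was called at IR day 1 without cells of mixed markers, and 1 for MI against IR day 3 with wells of 2000 UMIs. In cardiomyocytes, DESeq2 called 1 at IR day 1 and 0 in MI (3 each by edgeR), and 5 were called at IR day 3 with at least 10 cells or with the 9 genes among the variable genes, the latter also giving 1 at IR day 14.

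With 1 plate left out, counts ran from 6 to 7 (IR day 1), 6 to 9 (IR day 3), 0 to 0 (IR day 14), 8 to 9 (MI), 0 to 2 (MI against IR day 3) and 0 to 3 (interaction) in plate sums; from 5 to 6, 2 to 7 and 5 to 7 for IR day 1, IR day 3 and MI, 2 to 2 for MI against IR day 3, 6 to 8 for IR day 3 against day 1 and 0 to 1 for IR day 14 against day 3 in fibroblasts; from 2 to 3 and 1 to 2 in macrophages; from 1 to 2, 0 to 0, 0 to 0, 4 to 4 and 0 to 1 in endothelial cells (IR day 1, 3 and 14, MI, MI against IR day 3); and from 0 to 3, 3 to 4, 0 to 0 and 0 to 3 in cardiomyocytes (IR day 1, 3 and 14, MI). There, without IR day 1 replicate 3, Thbs1 turned to -3.62 (range to 5.50) and Ctgf to -0.084 (range to 3.76), and without MI replicate 3 Ctgf turned to -6.57 (range to 2.99).

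Replicate numbers are shared by the groups' labels but were not taken to pair the plates. Correlations of deviations between plates of the same number ran from -0.08 to 0.34. The 2 pairs of IR day 14 with sham day 14 were both positive, at 0.15 and 0.34. With the replicate block, counts of calls moved to 1 in fibroblasts and macrophages for MI against IR day 3, to 1 in endothelial cells at IR day 1 and at IR day 3, and to 1 in cardiomyocytes in MI. With it, 8 calls missed the threshold: Thbs1 at IR day 3 in plate sums (adjusted p 0.088), in fibroblasts Sparc at IR day 3 (0.0522), Thbs2 for MI against IR day 3 (0.0814) and Tnc for IR day 3 against day 1 (-1.32, 0.199), Ctgf in endothelial cells at IR day 1 (0.0737), Fn1 in macrophages for MI against IR day 3 (0.107), and Fn1 and Thbs1 in cardiomyocytes in MI (0.259 and 0.154). The number of cells limits the sham fibroblasts (30 in sham day 1 and 15 in sham day 14). There Tnc rested on 1 UMI in either group, and Cthrc1 on 3 in sham day 1 and 0 in sham day 14.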
